A study of Arabidopsis thaliana with 11 samples.

Results

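The line that carries an inducible SPEECHLESS gene was compared with the wild type before induction, over all 33602 genes of the table. The comparison used the 3 untreated libraries of 11 in the series, taken by their labels for line and treatment. Untreated iSPCH seedlings (iSPCH 0 h, 2 libraries) carried ESTpro:SPCH1-4A-YFP, a fluorescently tagged form of SPEECHLESS (SPCH) with altered phosphorylation sites, placed under an estradiol-responsive promoter. Untreated wild-type seedlings (WT 0 h, 1 library) were Columbia (Col) without the transgene. All were whole seedlings, 4 days old and grown in light. The other 8 libraries, 2 each of iSPCH 6 h, WT 6 h, iSPCH 8 h and WT 8 h, came from seedlings in 10 µM beta-estradiol and share no library with the untreated comparison. The labels do not say how many insertions or independent transformants stand behind iSPCH, or how many seedlings were pooled. Nor do they say whether 2 libraries of a group stem from different cultures, and the p-values therefore reflect only how these libraries scatter, which may be technical. Because WT 0 h is 1 library, a deviation of that library and a difference between the lines cannot be told apart at 0 h.

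SPCH is a basic helix-loop-helix transcription factor that starts the stomatal lineage in the leaf epidermis. Its partners ICE1 and SCRM2 bind DNA with it, the receptor-like protein TMM and the ERECTA-family receptors read peptide signals that limit it, and a mitogen-activated protein kinase cascade phosphorylates it. In an estradiol-inducible line the transgene is meant to be silent until the hormone is added, so the untreated seedlings show the starting point that both lines bring to the induction. Some plant loci are known to switch between silenced and expressed states that are inherited without a change of sequence.

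Assigned reads came to 25.11M and 25.03M in the iSPCH 0 h libraries, called A and B in arbitrary order, against 32.81M in WT 0 h. The 8 later libraries held 15.55M to 28.43M. All values below are normalised reads, that is reads divided by the authors' size factor of the library. Differences are log2(iSPCH/WT) after adding 1, with their standard error (SE). A gene said to rise or fall was higher or lower in iSPCH than in WT at the same hours. The 2 untreated iSPCH libraries differed by 5.43 times the variance expected from counting, with a median absolute difference of 0.119 on the log2 scale. Markers of shoot and root were present, and floral markers were near 0. The shoot meristem gene STM had 40.1 and 32.1 normalised reads in iSPCH 0 h, against 31.6 in WT 0 h, and the 5 root markers summed to 1899 and 2021, against 2035. The 4 floral organ genes summed to 10.5 and 20.4, against 11.6.

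SPCH itself had 169.8 and 232 normalised reads in iSPCH 0 h, against 178 in WT 0 h. The WT value lay between the 2 iSPCH values, and the difference of 0.16 ± 0.23 (log2 ± SE) was not called (adjusted p = 0.929). After induction the same gene stood at 37224 to 41639 normalised reads in the 4 iSPCH libraries, against 99.5 to 141 in the 4 WT libraries, which is 8.37 ± 0.13 on the log2 scale. Reads of the endogenous gene and of the transgene cannot be told apart in a per-gene table. Leaving out library B turned the untreated difference to -0.067.

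None of the 26 stomatal lineage genes was called at 0 h, where 0.0915% of all tested genes were, and their median difference was 0.09. Over 6 h and 8 h 12 of the 26 were called higher, as were 5.90% of all genes, and 2 lower, as were 10.1%. At 0 h, 0 of the 26 reached an unadjusted p under 0.05 either, against 1529 of all 19664 tested genes. TMM had 316 and 372 normalised reads in iSPCH 0 h, against 347 in WT 0 h, a difference of -0.02 ± 0.13. EPF2, the peptide made by early lineage cells, differed by -0.00 ± 0.47, BASL, a polarity protein of asymmetric division, by 0.09 ± 0.26, and FAMA, which acts late in guard cell formation, by -0.09 ± 0.11. The widest values in the list were 0.41 ± 0.52 for MUTE and -0.38 ± 0.24 for EPFL9 (adjusted p = 0.914 and 0.757). Of the 12 guard cell genes 11 were tested and 0 were called at 0 h. With 0.0915% of all tested genes called, a count of 0 in a list this small says little about its members. GORK, an outward potassium channel of guard cells, differed by 0.48 ± 0.24 and the anion channel ALMT12 by -0.37 ± 0.27.

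**Figure D1:**
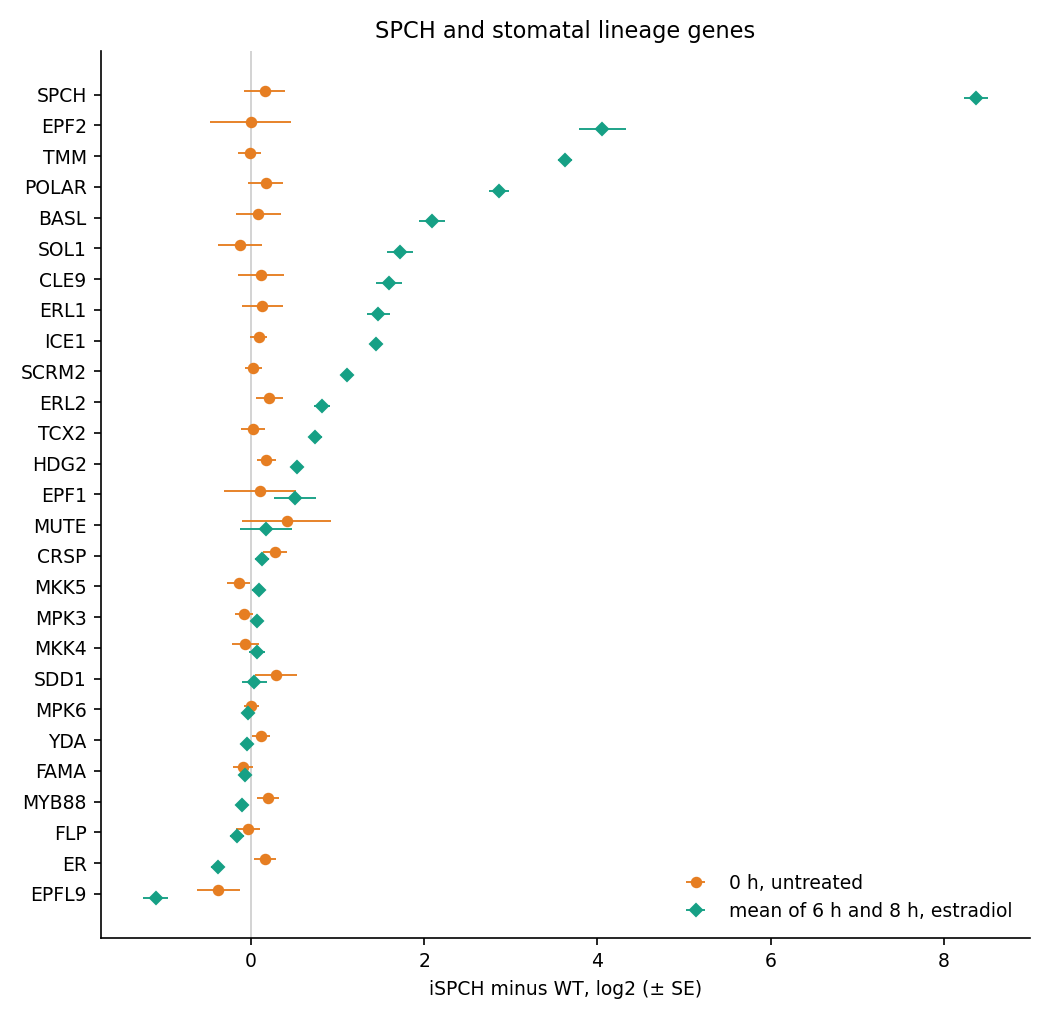
Differences between iSPCH and WT for SPCH and the 26 genes of the stomatal list, in log2 units with their SE, at 0 h (circles, 2 iSPCH libraries against 1 WT library) and as the mean of 6 h and 8 h (diamonds, 4 libraries against 4). At 0 h all points lie between -0.38 and 0.41, whereas in estradiol SPCH stood at 8.37, EPF2 at 4.06 and TMM at 3.63.

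Across all genes the 2 untreated lines were close. Of 19664 genes tested, 18 (0.0915%) were called, 9 higher in iSPCH (0.0458%) and 9 lower (0.0458%). The median difference was -0.01 and 95.9% of genes lay within 0.5 on the log2 scale. An unadjusted p under 0.05 was reached by 1529 genes, 801 of them higher in iSPCH and 728 lower. The same model called 924 genes at 6 h (4.70% of those tested) and 2106 at 8 h (10.7%), where each line has 2 libraries. The median SE was 0.151 at 0 h and 0.123 at 6 h and 8 h. On simulated counts the fit at 0 h found 50.7% of 1.5-fold, 80.6% of 2-fold and 100% of 4-fold changes. That run called 163 genes, against 18 here, which loosens the adjusted threshold, so these shares may be too high for the real data. Its changes also lay only in genes above a set mean at 0 h, and each gene's spread was taken from the trend over abundance. Of 101 genes at least 1 apart on the log2 scale at 0 h, 14 were called. Differences of 2-fold and more could therefore also be missed at this depth and replication. Other settings moved the count of 18 by over 1.5 times. It was 44 in the 3 untreated libraries alone, 42 with DESeq2, 30 with no filter on low counts, 28 without iSPCH 0 h B, and 41 and 39 without iSPCH 6 h A or B. Scaling by library size alone gave 24 genes higher and 10 lower in place of 9 and 9.

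**Figure D2:**
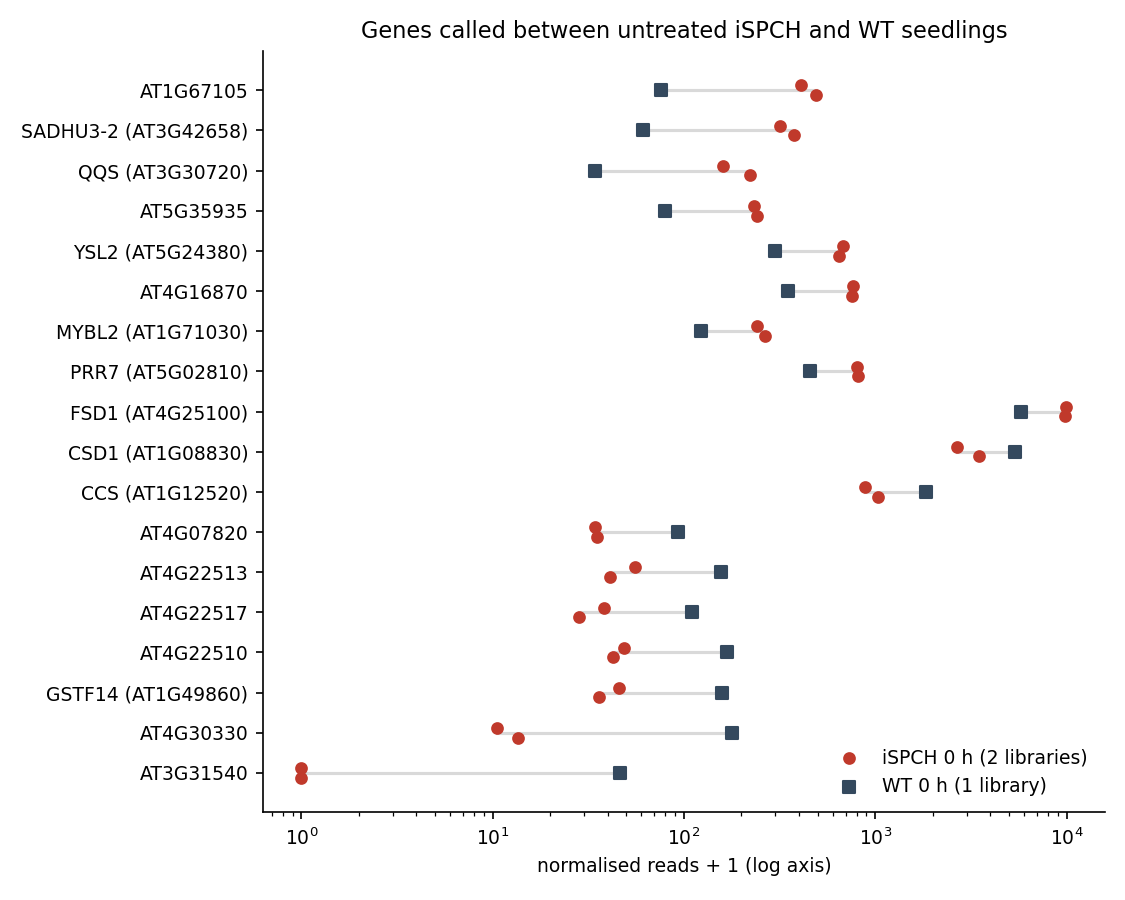
Normalised reads plus 1 on a log axis for the 18 genes called between untreated iSPCH (circles, 2 libraries) and WT (square, 1 library), ordered by the difference. In every row the WT value lies outside the 2 iSPCH values, as it did for 70.5% of all tested genes, from AT1G67105 at the top (410.2 and 491 against 74.7) to AT3G31540 at the bottom (0 and 0 against 45.4).

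Of the 18 genes, 7 were called in the same direction at 0 h, 6 h and 8 h, and others differed between hours. Of the 9 genes lower in iSPCH at 0 h, 3 were called lower at 6 h and 6 at 8 h. Over all 19664 tested genes 698 were called lower at 6 h and 1173 at 8 h. Of the 9 genes higher in iSPCH at 0 h, 4 were called higher and 2 lower at 6 h, and 6 were called higher and 0 lower at 8 h. Over all tested genes 226 were called higher at 6 h and 933 at 8 h. In the mean of both hours 8 of the 9 lower genes were called lower, as were 10.1% of all genes. In that mean 5 of the 9 higher genes were called higher, as were 5.90% of all genes, and 3 were called lower. The later libraries are different seedlings, but they enter the same estimate of the spread. For 7 of the 18 genes all 6 iSPCH libraries lay apart from all 5 WT libraries: AT3G31540, AT4G30330, GSTF14, AT5G35935, QQS, SADHU3-2 and AT1G67105. Over all 19664 tested genes 103 (0.524%) did so, but the 0 h libraries had also selected the 18, so the 2 shares are not comparable. In the libraries of 6 h alone the lines lay apart for 16 of the 18 genes and for 48.1% of all tested genes. In those of 8 h alone they did so for 17 of the 18 and for 50.7% of all. For another 7 the difference at 0 h was itself unlike that over 6 h and 8 h. That test called 433 genes in all (2.20%). It contains the same 0 h values that selected the 18, 1 WT library among them, which favours a difference between hours in these genes. Their share therefore cannot be set against that of all genes.

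**Figure D3:**
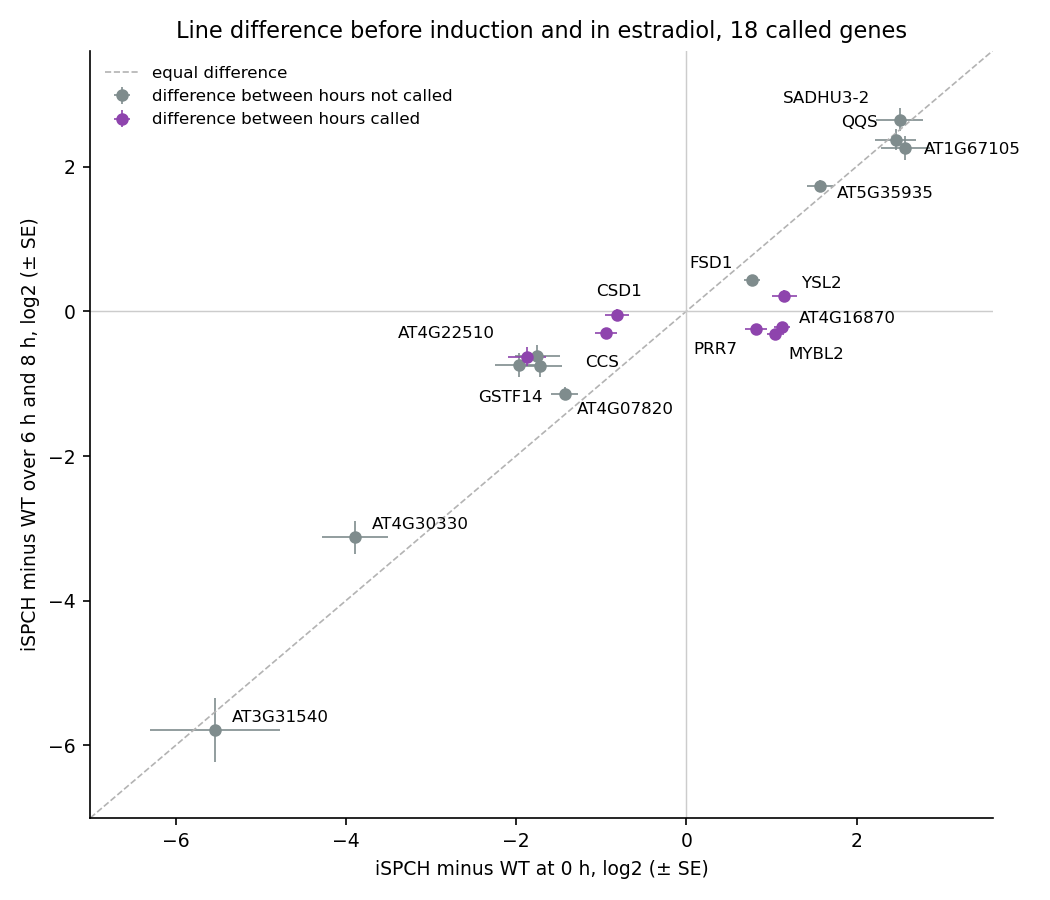
Line difference at 0 h (horizontal axis, log2 ± SE, 2 libraries against 1) and over 6 h and 8 h (vertical axis, log2 ± SE, 4 against 4) for the 18 genes called at 0 h, with the line of equal difference dashed. QQS (2.46 and 2.37), SADHU3-2 (2.51 and 2.64) and AT3G31540 (-5.54 and -5.79) lie on or near the line, while PRR7, MYBL2 and AT4G16870 lie above 0 at 0 h and below 0 later.

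AT3G31540, an annotated pseudogene on chromosome 3 (TAIR10.1, 12843392 to 12845748, minus strand), had 0 and 0 normalised reads in iSPCH 0 h, against 45.4 in WT 0 h. Its reads numbered 0 and 0 against 59. Across all hours it stood at 0 to 2.36 normalised reads in the 6 iSPCH libraries, against 45.4 to 99.7 in the 5 WT libraries. It was the only gene of the table with at most 3 reads in every library of 1 line and at least 20 in every library of the other. With 3 reads taken as the limit that a count of 0 allows in each library, it was at least 15.6-fold lower in iSPCH 0 h. The fitted -5.54 depends on the added count, and with 0.1 in place of 1 the adjusted p was 0.0739. The pseudogene shares stretches of up to 656 bases at 95.7% identity with AT3G43000, so some reads may have been split between the copies. AT3G43000 had 0 reads in each of the 6 iSPCH libraries and 1 to 7 reads in the 5 WT libraries, at most 7.93 normalised reads.

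AT4G30330 encodes a small nuclear ribonucleoprotein family protein, a class that builds the Sm core of spliceosomal particles. It lies on chromosome 4 (TAIR10.1, 14836548 to 14838149, minus strand). It had 9.54 and 12.6 normalised reads in iSPCH 0 h, against 177 in WT 0 h, and fell by 3.89 ± 0.39 on the log2 scale (adjusted p = 0.000231). Over all hours the 6 iSPCH libraries held 7.43 to 16.5, against 97.6 to 177 in the 5 WT libraries, and the gene was called at each hour. Of its annotated neighbours, DGK7, 23 bases away, differed by -0.17 ± 0.14 at 0 h and AT4G30310 by -0.02 ± 0.10, neither of them called. Over 6 h and 8 h both were called lower, by 0.48 and 0.30 on the log2 scale.

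GSTF14, a phi-class glutathione transferase, had 44.8 and 35.0 normalised reads in iSPCH 0 h, against 157 in WT 0 h, and fell by 1.96 ± 0.29 on the log2 scale. Over 6 h and 8 h it was called lower by 0.74 ± 0.16. Without library B at 0 h its adjusted p was 0.0630. AT4G07820, of the cysteine-rich CAP superfamily that includes pathogenesis-related proteins, had 33.4 and 34.0 in iSPCH 0 h, against 92.4 in WT 0 h. It was called lower at 0 h, 6 h and 8 h, by 1.43 ± 0.16, 0.99 ± 0.13 and 1.28 ± 0.13. In a fit of the 3 untreated libraries alone its adjusted p was 0.0950.

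A group of 3 called neighbours lies on chromosome 4 (TAIR10.1, 11854796 to 11857417). AT4G22510 on the minus strand covers AT4G22513 and AT4G22517 on the plus strand, by 631 and 620 bases, and the counting is not stated to use strand. Of the 732 exon bases of AT4G22510, 664 lie within exons of the other 2 genes. Without strand, reads there cannot be assigned to 1 gene, so the 3 may not be independent observations, although each is counted among the 18. Both plus-strand genes encode small proteins of the lipid-transfer and storage albumin type. AT4G22510 had 47.7 and 41.8 normalised reads in iSPCH 0 h, against 166 in WT 0 h, and fell by 1.87 ± 0.22. AT4G22513 fell by 1.72 ± 0.26 and AT4G22517 by 1.75 ± 0.27, and both lost their call without library B. The next 3 genes on one side, AT4G22505, AT4G22490 and AT4G22485, differed by -2.02 ± 0.75, -1.31 ± 0.50 and -1.38 ± 0.59 and were not called. On the other side AT4G22520 differed by -1.71 ± 0.40 (adjusted p = 0.225) and AT4G22530 by -0.18 ± 0.22.

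Among the 9 genes higher in iSPCH, 2 belong to a list of 12 loci known to switch between silenced and expressed states, of which 8 had enough reads to test. Over all tested genes 0.0458% were called higher. The list's median was -0.20, and 2 of its members were lower at an unadjusted p under 0.05, as were 728 of all 19664 tested genes. QQS, an orphan gene linked to starch content whose expression varies between plants of the same sequence, had 158 and 219.7 normalised reads in iSPCH 0 h, against 33.1 in WT 0 h. It rose by 2.46 ± 0.25 (adjusted p = 0.000231), and over all hours the iSPCH libraries held 158 to 269, against 33.1 to 53.1 in WT. SADHU3-2, a non-coding retroposon of the Sadhu family annotated as a pseudogene, had 319 and 376 in iSPCH 0 h, against 60.1 in WT 0 h. It rose by 2.51 ± 0.28 and held 261 to 376 in iSPCH over all hours, against 33.2 to 63.5 in WT. Neither line was at 0 for either locus. The difference at 0 h minus that over 6 h and 8 h was -0.14 ± 0.32 for SADHU3-2 and 0.09 ± 0.28 for QQS, neither of them called.

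The other 6 tested members of that list were not called. FWA, a homeobox gene normally silent outside the endosperm, had 7.63 and 8.75 normalised reads in iSPCH 0 h, against 26.2 in WT 0 h, and differed by -1.57 ± 0.58 (adjusted p = 0.534). The tryptophan synthesis genes PAI1 and PAI2 differed by -0.26 ± 0.11 and -0.32 ± 0.16. SDC, EVADE, AtMU1 and SUP had too few reads to test. Of the 20 genes of DNA methylation and silencing, 0 were called, against 0.0915% of all tested genes, so a count of 0 says little about them. The Dicer-like nuclease DCL4, at 0.36 ± 0.16, was the 1 that reached an unadjusted p under 0.05, as did 1529 of all 19664 tested genes. The histone deacetylase HDA6 differed by -0.28 ± 0.13.

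A further 2 non-coding or pseudogene loci were higher in iSPCH at every hour. AT1G67105, a non-coding RNA on chromosome 1, had 410.2 and 491 normalised reads in iSPCH 0 h, against 74.7 in WT 0 h, and rose by 2.57 ± 0.29. Over all hours it held 410.2 to 620.1 in iSPCH, against 74.7 to 145 in WT. AT5G35935, a pseudogene on chromosome 5, had 232 and 239 in iSPCH 0 h, against 78.6 in WT 0 h, and rose by 1.57 ± 0.15. A stretch of 103 bases beside it matches it at 99.0% identity.

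Pseudogenes made up 4 of the 18 called genes but 165 of the 19664 tested, so 2.42% of tested pseudogenes were called, against 0.0685% of the 18979 protein-coding genes. None of the 103 tested loci annotated as transcribed pseudogenes was called. By chromosome the called genes numbered 5 on chromosome 1, 0 on chromosome 2, 3 on chromosome 3, 7 on chromosome 4 and 3 on chromosome 5, where the 7 include the 3 genes around AT4G22510. The 59 tested genes within 3 positions of a called gene and not called themselves had a median absolute difference of 0.157, against 0.128 for all genes.

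Genes of 2 superoxide dismutases and of a copper chaperone were among those called. Plants remove superoxide in the chloroplast and cytosol either with copper/zinc enzymes or, when copper is short, with an iron enzyme. The transcription factor SPL7 then raises FSD1 and the microRNA miR398, and miR398 cuts the transcripts of CSD1, CSD2 and the chaperone CCS, which loads copper onto them. Of the 7 genes listed for this economy of copper, 1 was called higher in iSPCH at 0 h (FSD1) and 2 lower (CCS and CSD1), against 0.0458% of all tested genes in each direction. The list's median was 0.07, with members on both sides of it.

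FSD1, the iron superoxide dismutase, had 9994 and 9842 normalised reads in iSPCH 0 h, against 5805 in WT 0 h, and rose by 0.77 ± 0.09 (adjusted p = 0.00135), which is 1.71-fold. CCS had 884 and 1029 in iSPCH 0 h, against 1835 in WT 0 h, and fell by 0.94 ± 0.12 (adjusted p = 0.0035). CSD1, the cytosolic copper/zinc enzyme, had 2671 and 3505 in iSPCH 0 h, against 5369 in WT 0 h, and fell by 0.81 ± 0.14 (adjusted p = 0.0471). The WT value lay outside both iSPCH values for these 3, as it did for 70.5% of all tested genes. The call of CSD1 was lost in 9 of 21 alternatives, among them the fit without library A, where the difference was -0.62. CSD1 overlaps emb2411 on the other strand by 211 bases.

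CSD2, the chloroplast copper/zinc enzyme, showed the widest gap of the list without being called. It had 4060.4 and 4444 normalised reads in iSPCH 0 h, against 9277 in WT 0 h, a difference of -1.13 ± 0.19 (adjusted p = 0.0731), and was called lower in 10 of 21 alternatives, edgeR among them at an adjusted p of 0.0127. The copper chaperone CCH differed by 0.43 ± 0.10 (adjusted p = 0.232), the high-affinity copper transporter COPT2 by 0.54 ± 0.30 and SPL7 by 0.07 ± 0.11. The metal transporter ZIP2, chosen after its values were seen, had 1189 and 979.9 in iSPCH 0 h, against 617 in WT 0 h (0.81 ± 0.15, adjusted p = 0.0731). The precursor transcript of MIR398c had 304 and 385, against 350.4, a difference of -0.03 ± 0.21, and that of MIR408 differed by -0.25 ± 0.21; both were also chosen after the values were known, and poly-A libraries do not measure the mature microRNAs.

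At 6 h none of the 7 genes was called, against 4.70% of all genes. At 8 h FSD1, CCS, CSD2 and COPT2 were called, as were 10.7% of all genes. FSD1 stood at 5906 and 6059.8 normalised reads in iSPCH 8 h, against 3768 and 3713 in WT 8 h, higher in iSPCH by 0.68 ± 0.08. CSD2 stood at 2268 and 2630.2 in iSPCH 8 h, against 5837 and 6184 in WT 8 h, lower in iSPCH by 1.30 ± 0.15. At 6 h the corresponding differences were 0.18 ± 0.08 for FSD1 and 0.34 ± 0.15 for CSD2. The difference between hours was tested for 0 h against the mean of 6 h and 8 h only, and was called for CCS (-0.64 ± 0.14) and CSD1 (-0.76 ± 0.16).

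**Figure D4:**
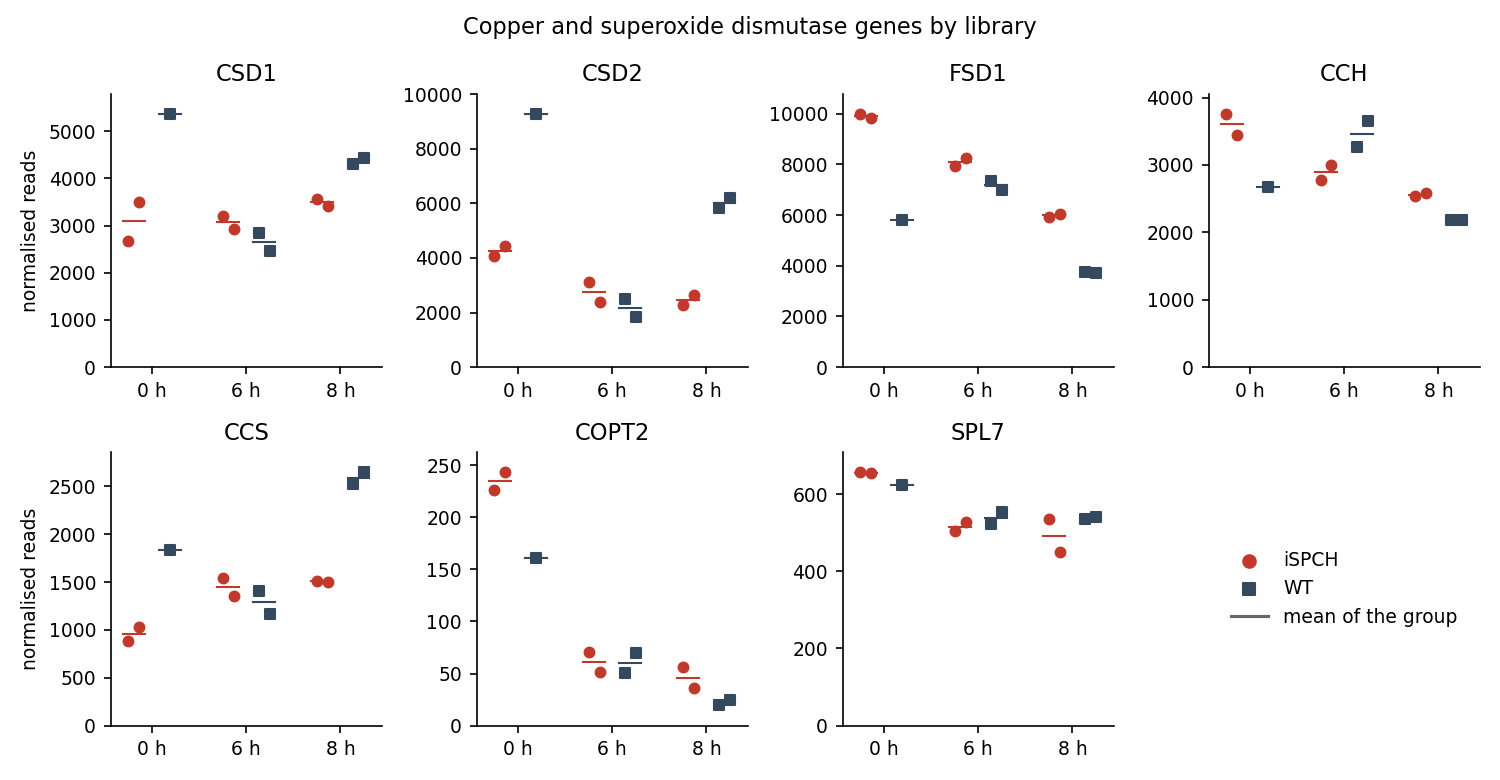
Normalised reads of the 7 copper-related genes in each library at 0 h, 6 h and 8 h, iSPCH (circles) left of WT (squares), with a bar at the group mean and each vertical axis starting at 0. At 0 h and at 8 h the iSPCH points of CSD1, CSD2 and CCS lie below and those of FSD1 above the WT points, and at 6 h none of the 7 genes was called.

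The pairing that ties CSD1 and CCS to miR398 can be read from their sequences. Shown are the mature microRNAs, with the seed (bases 2 to 8) in capitals, and the best ungapped match in each transcript, with bases that pair with miR398a in capitals, all read 5′ to 3′ from the RefSeq annotation of TAIR10.1.
miR398a: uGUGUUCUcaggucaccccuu
miR398b and miR398c: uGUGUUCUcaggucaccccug
CSD1 site: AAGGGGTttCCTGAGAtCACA
CCS site: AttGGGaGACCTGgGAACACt

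The 3 microRNA loci share 1 seed and differ in the last base. The CSD1 site pairs at 18 of 21 bases, lies in the 5′ UTR and is joined across an intron between chr1:2827177-2827685 on the plus strand. Matches were ranked by a penalty of 1 for a mismatch and 0.5 for a G:U pair. Of 37880 loci, each by its longest transcript, 2 had a penalty as low as that of CSD1, which is counted among them. The CCS site, chr1:4267521-4267541 on the minus strand, lies in the coding sequence, and pairs at 16 bases with 1 further G:U pair. A penalty as low was found in 65 loci (0.172%). Against miR398b and miR398c, whose last base pairs with neither site, penalties as low were found in 11 loci for CSD1 and in 518 (1.37%) for CCS. For FSD1, which is not a known target, the best match to miR398a had a penalty as low as found in 1.93% of loci. The best ungapped match in CSD2 had a penalty as low as found in 30.2% of loci, so it is not shown, and pairing with a bulge was not searched.

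The FSD1 promoter was read for GTAC, the core of the element that SPL7 binds. It holds 1 GTAC, in capitals, in the 250 bases before and 50 bases after the annotated start, chr4:12886962-12887261 on the minus strand. The motif is its own reverse complement, so 1 search covers both strands.
FSD1 promoter: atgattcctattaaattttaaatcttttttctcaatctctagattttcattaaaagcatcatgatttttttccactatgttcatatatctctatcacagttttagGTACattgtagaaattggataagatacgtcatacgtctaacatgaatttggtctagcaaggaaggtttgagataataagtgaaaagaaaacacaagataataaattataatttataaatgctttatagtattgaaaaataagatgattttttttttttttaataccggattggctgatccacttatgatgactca

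Of 27443 protein-coding genes, 39.0% hold at least 1 GTAC in a window of this length. CCS holds 1, CSD1 2 in a row, CCH and ZIP2 4 each, COPT2 1, and CSD2 and SPL7 0. The motif was thus present in promoters of genes that were higher and of genes that were lower in iSPCH.

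YSL2, a transporter of metal complexes with nicotianamine, had 681 and 649 normalised reads in iSPCH 0 h, against 299 in WT 0 h, and rose by 1.15 ± 0.15 (adjusted p = 0.00247). It was called higher again at 8 h, by 0.69 ± 0.12, and not at 6 h, where it differed by -0.27 ± 0.12. Its promoter holds 3 GTAC motifs. None of the 15 iron deficiency genes was called at 0 h, against 0.0915% of all tested genes. The iron store FER1 differed by -0.47 ± 0.11 (adjusted p = 0.235) and the regulator BHLH39 by -0.65 ± 0.33.

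A last set of 3 genes was called higher in iSPCH at 0 h and lower in the mean of 6 h and 8 h, though none of them was called lower at 8 h alone. PRR7, a morning repressor of the circadian clock, had 804 and 812 normalised reads in iSPCH 0 h, against 457 in WT 0 h, and rose by 0.82 ± 0.13 (adjusted p = 0.0176). Over 6 h and 8 h it was lower in iSPCH than in WT by 0.25 ± 0.07, while at neither hour alone was it called (-0.20 ± 0.11 and -0.29 ± 0.11). Its call at 0 h was lost without either iSPCH library (adjusted p = 0.106 and 0.105) and with edgeR (adjusted p = 0.0798). MYBL2, a repressor of anthocyanin synthesis, had 241 and 264 in iSPCH 0 h, against 122 in WT 0 h, and rose by 1.05 ± 0.10. Over 6 h and 8 h it was lower in iSPCH than in WT by 0.32 ± 0.06. The difference was -0.42 ± 0.08 at 6 h, which was called, and -0.22 ± 0.08 at 8 h, which was not. At 6 h and 8 h PRR7 held 4049 to 4841 in iSPCH, against 4736 to 5595 in WT, and MYBL2 1213 to 1373, against 1507 to 1677.

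AT4G16870, a pseudogene beside the resistance gene RPP4, had 763 and 756 normalised reads in iSPCH 0 h, against 347 in WT 0 h, and rose by 1.13 ± 0.10 (adjusted p = 0.000137), the smallest p of the comparison. Over 6 h and 8 h it was lower in iSPCH than in WT by 0.22 ± 0.06, which came from 6 h (-0.44 ± 0.08, called). At 8 h it had 1307 and 1439 in iSPCH, against 1380.0 and 1347 in WT (0.01 ± 0.08, adjusted p = 0.969). RPP4, 69 bases away, differed by 0.78 ± 0.16 at 0 h (adjusted p = 0.153), and SNC1 of the same cluster by 0.25 ± 0.11.

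PRR7 was the only called gene of the 18 on the circadian list, whose median was 0.06. Without adjustment 5 members were higher at p under 0.05 and 1 lower, as were 801 and 728 of all 19664 tested genes. Besides PRR7, PRR9 had 160.3 and 119 normalised reads in iSPCH 0 h, against 80.1 in WT 0 h (0.78 ± 0.20, adjusted p = 0.266). The evening gene GI had 531 and 454, against 367 (0.42 ± 0.12). LNK1 and LNK2, coactivators of the clock, differed by 0.34 ± 0.10 and 0.29 ± 0.11, and the RNA-binding protein GRP7 by -0.33 ± 0.14. The dawn genes CCA1 and LHY differed by 0.13 ± 0.17 and 0.03 ± 0.16, and TOC1 by -0.06 ± 0.14. The labels give no hour of day for any harvest.

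The remaining 13 lists held 0 called genes at 0 h, and their medians ran from -0.35 to 0.15. Over all tested genes 0.0915% were called, so a count of 0 in lists of this size says little about their members. Nitrate and sulphur genes had the lowest median, -0.35 over 8 tested genes. Of these, 3 were lower at an unadjusted p under 0.05, as were 728 of all 19664 tested genes. The nitrate transporter NRT1.1 differed by -0.27 ± 0.10 and the sulphate-assimilation enzyme APR3 by -0.34 ± 0.14. The flavonoid and anthocyanin list had the highest median, 0.15. It also held the early light-induced protein gene ELIP1, at 0.33 ± 0.23, and its member FLS1 stood at -0.27 ± 0.20. Under touch, wounding and defence TCH4 differed by 0.59 ± 0.15 and TCH2 by 0.29 ± 0.15. The hypoxia genes PCO1 and HRA1 differed by -0.96 ± 0.31 and -0.53 ± 0.32, and the chaperones HSP90.1 and HSP70-4 by -0.32 ± 0.21 and -0.37 ± 0.35. Among dehydration genes RAB18 stood at -0.86 ± 0.26 and KIN2 at 0.39 ± 0.15.

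The cytokinin response regulators ARR7 and ARR6 differed by -0.81 ± 0.26 and -0.40 ± 0.19. The phosphate genes PHT1;4 and AT4 stood at -0.21 ± 0.11 and -0.39 ± 0.20, and the cell cycle genes SMR1 and RNR2A at -0.27 ± 0.14 and -0.32 ± 0.17. The glucosinolate genes SUR1 and MYB51 stood at -0.23 ± 0.14 and -0.22 ± 0.21. The glyoxylate-cycle genes MLS and ICL differed by -0.24 ± 0.14 and 0.09 ± 0.11. Of the 11 root hair genes, 9 were called lower over 6 h and 8 h, as were 10.1% of all genes, and 0 were called at 0 h, where RHD2 differed by 0.13 ± 0.14 and EXP18 by -0.35 ± 0.47. In whole seedlings fewer cells of a type and less RNA per cell cannot be told apart. The adjusted p of the genes named for these 13 lists ran from 0.235 for FER1 to 0.919 for EXP18.

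Genes called after induction were also read at 0 h, with no test. The 933 genes called higher in iSPCH at 8 h (4.74% of those tested) had a median of -0.02 at 0 h, against -0.01 for all genes, and 46.5% of them were above 0, against 47.7% of all genes. The 1173 genes called lower at 8 h (5.97%) had a median of -0.02. Of these, 6 higher and 6 lower genes were called in the same direction at 0 h. The 164 genes at least 2-fold lower at 8 h had a median of -0.11 at 0 h with 36.6% above 0, and the 249 at least 2-fold higher had 0.0069 with 51.4%. At 6 h the 91 genes at least 2-fold lower had a median of -0.12 at 0 h with 29.7% above 0, and the 41 at least 2-fold higher had 0.10 with 68.3%. These sets include genes called at 0 h, 2 to 4 in each. Among genes with the smallest p for the difference between hours, AT1G12845, an uncharacterized protein, had 67.7 and 65.1 normalised reads in iSPCH 0 h, against 83.2 in WT 0 h, and VTC5, an enzyme of ascorbate synthesis, had 569.6 and 539, against 566.

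At 0 h alone 7 loci had at least 20 reads in WT and at most 3 in each iSPCH library, and 1 had the reverse. Besides AT3G31540 the 7 comprise 6 neighbouring pseudogenes on chromosome 1 (TAIR10.1, 14437603 to 14463247), each with 25 or 26 reads in WT 0 h. Their counts are nearly identical although their lengths run from 531 to 8397 bases. Whether the same reads were counted at several of them was not tested, so the 6 may not be independent observations. All 6 had at most 4 reads in every other library, WT included, and the later WT libraries differ from WT 0 h in treatment and hour as well. None of the 6 was tested. The reverse case was AT3G33072, a pseudogene with 42.0 and 24.3 normalised reads in iSPCH 0 h, against 2.31 in WT 0 h. It held 10.6 to 42.0 in iSPCH over all hours, against 1.13 to 3.79 in WT, and had too few reads to enter the test.

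For 114 genes, abundant in at least 1 group, the authors' means could not be split into libraries in every group. They were left out of the fit, and their means stand side by side without a test. They hold 31.6% of all reads, and their ratio of iSPCH 0 h to WT 0 h had a median of 0.958. Of the 114, 68 had several solutions in iSPCH 0 h and 0 in WT 0 h, and the others only in later groups. Each had a mean of at least 24523.8 in some group, which for SEN1 and ASN1 was not at 0 h. The highest ratios belonged to SEN1, a gene of dark-induced senescence, with authors' means of 318 against 176 (1.81), and to ASN1, an asparagine synthetase raised by darkness and low sugar, with 958 against 666 (1.44). AT3G15450 followed with 2618 against 1822 (1.44). The lowest were RBCS1B, a small subunit of Rubisco, with 171533 against 233472 (0.735), and the 18S ribosomal RNA loci AT3G41768 and AT2G01010, near-identical copies, at 0.744 and 0.745. Counts of the near-identical RBCS genes may likewise have been divided among copies.

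Transcript length moved with the untreated difference. Tested genes were divided by transcript length into 10 bins of like size. In the bin of shortest transcripts (72 to 912 bases) the median difference was -0.12, and in that of the longest (3170 to 16593 bases) it was 0.17. Library A ran from -0.17 to 0.20 and library B from -0.07 to 0.14, both against the same WT library. At 6 h the medians of these bins were -0.0030 and 0.059, and at 8 h 0.0070 and -0.0032. Single libraries of 1 group also differed by length. Between the same bins, the median of A minus B ran from 0.065 to -0.12 in iSPCH 8 h and from -0.060 to 0.086 in WT 8 h. It ran from 0.059 to -0.097 in iSPCH 6 h, from -0.086 to 0.062 in iSPCH 0 h and from 0.012 to 0.0081 in WT 6 h. Of the genes higher at an unadjusted p under 0.05, 429 lay in the longest bin, and of the lower ones 196 in the shortest. Called genes had a median length of 1327 bases where higher and 827 where lower, against 1751 for all tested genes. The part of length in the 1529 unadjusted differences was not tested. Centring each library within bins of length, added after seeing the data, called 24 genes, and the 18 were all among them.

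**Figure D5:**
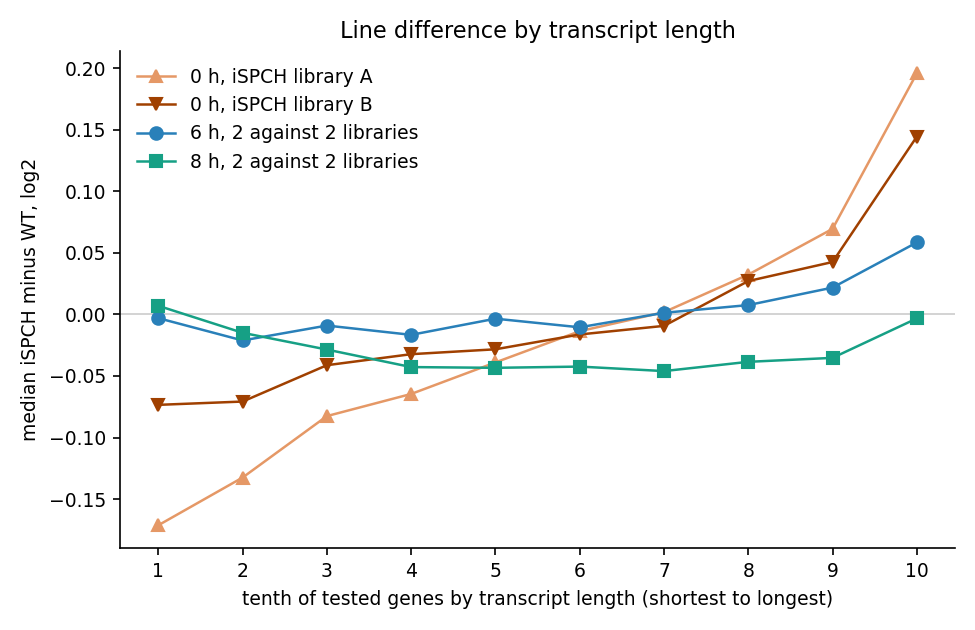
Median difference between iSPCH and WT, in log2 units, for 10 bins of the tested genes from the shortest to the longest transcripts, for each iSPCH library against the WT library at 0 h (triangles) and for the groups of 2 at 6 h (circles) and 8 h (squares). Both untreated comparisons climb with length, to 0.20 and 0.14 in the last bin, and those at 6 h and 8 h stay between -0.046 and 0.059. Points at 6 h and 8 h average 2 libraries per line, while those at 0 h rest on single libraries, which also differ by length within a group.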

How the data were processed

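Poly-A RNA of whole seedlings was sequenced from TruSeq libraries, per the labels' protocols. CASAVA 1.8, TopHat, DESeq and TAIR10 are listed without roles in the submitters' processing notes. Their other versions and the counting tool are not stated. The authors deposited 1 signal value per gene and group, the mean of size-factor normalised read counts, for 33602 genes. Whole reads of each library were recovered from the steps of these values (100% of WT 0 h values and at least 99.7% of those of each other group had 1 solution). Of 33602 genes 33488 had 1 solution in all groups and 114 had several.

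Values were analysed as log2(normalised reads + 1) with limma 3.58.1 in R 4.3.3, trend and robust variance, 1 coefficient per group over all 11 libraries, and Benjamini-Hochberg FDR of 0.05 over 19664 genes with CPM of at least 1 in at least 2 libraries. The lone WT 0 h library was taken to scatter as the paired groups do. Self-tests on simulated counts used 19664 genes, with 9 false calls of 163. Positions and names are from TAIR10.1 (32835 of 33602 loci matched). Copies were sought with BLAST+ 2.17.0 at 95% identity over 100 bases.

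Named genes are SPCH, called genes, gene-list members by smallest p, genes with reads in 1 line only, and the extremes of the untested abundant genes. Neighbours of called genes and the genes marked in the text as chosen after their values were seen fall outside this rule. The comparison, its 19 lists and this rule were chosen with earlier results of these data known. Alternatives were another added count, scaling, filter, test (edgeR 4.0.16, which called 21 genes on the recovered reads, and DESeq2 1.42.0), variance and set of libraries. SEs and p-values come from the scatter between libraries, and the limit set by 3 reads covers counting error only.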

Additional observations from a re-analysis of the deposited data

Results flagged for a closer look

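For 433 genes the line difference at 0 h was unlike that over 6 h and 8 h, by the test of the difference itself in the same fit. Of these, 11 are listed here (0 h minus later, log2 ± SE), 7 of them also called at 0 h. The 0 h values that selected those 7 enter this test too, which favours a difference. Of genes called at 0 h, the value was -1.25 ± 0.25 for AT4G22510, -0.64 ± 0.14 for CCS, -0.76 ± 0.16 for CSD1, 1.06 ± 0.15 for PRR7, 1.37 ± 0.12 for MYBL2, 1.34 ± 0.11 for AT4G16870 and 0.94 ± 0.17 for YSL2. PRR7, MYBL2 and AT4G16870 also had opposite signs at 0 h and in the mean of 6 h and 8 h, each called. The 4 others, picked among those with the smallest p for this difference, were not called at 0 h. Their values were -4.93 ± 0.19 for AT1G12845, -3.64 ± 0.16 for TMM, -1.71 ± 0.12 for VTC5 and -8.21 ± 0.27 for SPCH, the induced gene itself.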

How the results depend on the processing

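At 0 h 18 genes were called, and the alternatives gave 34 with scaling by library size, 30 with no filter, 44 in the 3 untreated libraries alone and 42 with DESeq2. All other planned settings outside the omissions, edgeR (21 genes, 17 shared) and TMM (18, all shared) among them, stayed between 13 and 21. Leaving out 1 library at a time gave 19 to 41 genes, with 28 without iSPCH 0 h B, 41 without iSPCH 6 h A and 39 without iSPCH 6 h B. Over 6 h and 8 h 3155 genes were called, 254 of them at least 2-fold, and omissions gave 1996 (without WT 6 h A) to 3516. Library size scaling moved that median difference to 0.10 and the split to 3487 higher and 1161 lower, from 1160 and 1995. The difference between hours called 433 genes, 113 at least 2-fold, 283 with no filter and 206 to 720 with omissions, namely 206 and 213 without iSPCH 0 h A or B, 720 without iSPCH 6 h B, and 210 and 265 without WT 6 h A or B. With limits of 0 and 10 reads, 0 genes had reads in WT only at all hours (1 before), 17 in WT only at 0 h (7 before) and 0 in iSPCH only at 0 h (1 before). The cause was not tested. No called gene changed sign in the 20 or 21 alternatives it could be fitted in; the uncalled SPCH did, from -0.067 without iSPCH 0 h B to 0.38 without A. No paired analysis was possible because the table holds group means, the labels' replicate numbers could not be traced to recovered libraries, and WT 0 h has 1 library. Depth and 1 WT library limit what 0 h can show: 1.5-fold changes were found at 50.7% in simulated data. The simulation called 163 genes, against 18 here, and placed no change in genes of low counts, so that share may be too high for the real data.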

Other observations

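Just past the threshold, 11 genes had an adjusted p between 0.05 and 0.10 at 0 h. Of these, HSPRO2, a nematode-resistance homologue, differed by 0.63 ± 0.12 (413 and 513 normalised reads in iSPCH 0 h, against 298 in WT 0 h), and AT2G20670 by 0.57 ± 0.11 (1958 and 2133, against 1379). AT5G38930, of the cupin superfamily, differed by -2.08 ± 0.40 (12.4 and 11.7, against 53.9), and the non-coding AT5G38005 by -1.73 ± 0.32 (13.4 and 9.72, against 40.1). AT5G38005 was called lower over 6 h and 8 h as well, at -1.36 ± 0.18, and PP2-A5, a phloem protein homologue, was called higher there, at 0.88 ± 0.09, after 0.86 ± 0.16 at 0 h. The 6 tested spliceosomal small nuclear RNA genes had a median difference of -0.99 at 0 h, and the 15 small nucleolar RNA genes one of -0.23. In either class 0 were called, against 0.0915% of all tested genes. Poly-A libraries are not made to capture these classes, and the bin of shortest transcripts had a median of -0.12 at 0 h. These genes were chosen after their values were seen.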
